A study of Mus musculus with 4 samples.

Results

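Bnip3 and 9 further genes of mitophagy were followed in the melanoma line B16-F10, which comes from a mouse and was grown in culture before its RNA was sequenced. Bnip3 was chosen by its measured values, namely its lower level in extravasated cells and the gap between the libraries of cells that had not extravasated, so its own values in this comparison are a description with no test. The others are receptors and effectors of the same pathway: Bnip3l, Fundc1, Bcl2l13, Pink1, Optn, Tbk1, Ulk1, Map1lc3b and Gabarapl1. All 10 were found among the 53465 genes of the count table, and all 10 were among the 12320 genes that passed the filter on low counts. Per the labels, fluorescent B16-F10 cells carrying no other named treatment had been infused into zebrafish, isolated from the fish and cultured in IMDM with FBS. The 2 libraries called extravasated here are those whose extravasation label reads Y, and the 2 called not extravasated, the control named in the series' design, read N. The growth text of all 4 libraries speaks of cells that had extravasated as clusters, so the groups rest on that label and the source name. The titles carry one number for both extravasated libraries and another for both controls, so whatever this number marks and the group cannot be told apart. The labels do not state whether libraries of 1 group were grown separately, and the p-values therefore reflect only how these 4 libraries vary, which may be technical.

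Mitophagy is the selective removal of mitochondria by autophagy, in which a membrane encloses the organelle and delivers it to the lysosome. In the receptor route, proteins of the outer mitochondrial membrane such as BNIP3, NIX (encoded by Bnip3l), FUNDC1 and BCL2L13 bind ATG8 proteins on the growing membrane directly, and Bnip3 is a classical target of the hypoxia-inducible factor HIF-1. In the PINK1 route, the kinase PINK1 marks damaged mitochondria with phosphorylated ubiquitin, which adaptors such as optineurin (Optn) read, with TBK1 as the kinase that activates optineurin. ULK1 starts the formation of the membrane, and LC3B (Map1lc3b) and GABARAPL1 are ATG8 proteins that become coupled to it.

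Total counts ran from 11705904 to 19674733 per library. The 6 melanocyte markers, Pmel and Dct among them, were present in every library with a summed level of 23584 to 30736 CPM (CPM is the read count divided by library size, after scaling with TMM factors). The summed levels of 5 immune, 4 endothelial, 5 fibroblast and 4 epithelial markers stayed between 0.0868 and 11.3 CPM in each library. Of these markers, Ptprc, Cd3e, Cdh5, Tek, Kdr, Dcn, Lum, Epcam and Krt8 had no read. The others had reads, with Cd68 at up to 4.69 CPM, Col1a1 at up to 7.16 and Pdgfra at up to 3.93. These libraries give RNA per culture, in which fewer cells expressing a gene and less RNA per cell cannot be told apart.

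The stretches around the RefSeq start sites (GRCm38.p6, 250 bases before to 50 after) were searched for ACGTG and GCGTG, the letters that HIF dimers are known to bind, and for CACGTG, which holds ACGTG on both strands and is the E-box read by MITF and TFEB. The windows of Bnip3, Tbk1 and Fundc1 are shown as those of genes with lower levels in extravasated cells; matches on either strand are in capitals, and each is written 5′ to 3′ on the gene's own strand.
Bnip3, chr7:138909457-138909756, minus strand: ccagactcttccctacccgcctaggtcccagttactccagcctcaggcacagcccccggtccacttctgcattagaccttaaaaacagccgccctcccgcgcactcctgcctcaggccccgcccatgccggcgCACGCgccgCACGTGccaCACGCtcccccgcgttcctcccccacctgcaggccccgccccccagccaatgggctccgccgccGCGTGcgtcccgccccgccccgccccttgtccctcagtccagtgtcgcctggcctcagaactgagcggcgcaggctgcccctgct
Tbk1, chr10:121586745-121587044, minus strand: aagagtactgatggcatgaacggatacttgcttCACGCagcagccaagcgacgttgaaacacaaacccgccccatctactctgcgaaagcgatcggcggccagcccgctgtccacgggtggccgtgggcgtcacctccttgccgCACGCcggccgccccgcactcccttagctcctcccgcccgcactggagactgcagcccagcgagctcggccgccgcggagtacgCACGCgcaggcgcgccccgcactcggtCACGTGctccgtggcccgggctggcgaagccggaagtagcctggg
Fundc1, chrX:17571958-17572257, minus strand: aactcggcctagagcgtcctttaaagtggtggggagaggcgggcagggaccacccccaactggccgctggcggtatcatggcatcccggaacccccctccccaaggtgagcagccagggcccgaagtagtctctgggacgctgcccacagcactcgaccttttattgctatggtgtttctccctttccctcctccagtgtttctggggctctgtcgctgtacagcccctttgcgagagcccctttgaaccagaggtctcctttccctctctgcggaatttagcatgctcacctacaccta
Bnip3 held CACGTG at positions 143 to 148 of its window, with GCGTG on the opposite strand at 134 to 138 and at 152 to 156 and on the gene's strand at 216 to 220. Tbk1 held CACGTG at positions 256 to 261 and 3 copies of GCGTG. Fundc1, which was also lower, held none of the 3 motifs in its window. This window lies wholly within the annotated gene, whose 5′ end is at 17572325, so the bases before that end were not searched. Windows were matched for 9 of the 10 genes, all but Bnip3l. Of these, 2 held ACGTG, in both cases within CACGTG, 7 held GCGTG, and those of Fundc1 and Gabarapl1 held neither. Among all 32851 promoter windows of this length, 19.6% held ACGTG, 32.4% GCGTG and 7.15% CACGTG. These shares were not matched for base composition. The median GC content of all windows was 52.7%, against 71.7% for Bnip3, 69% for Tbk1 and 59.3% for Fundc1.

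Bnip3, whose product is an outer membrane receptor that draws the autophagy membrane to mitochondria, lies on chromosome 7 (ENSMUSG00000078566.8, GRCm38, 138890836 to 138909519, minus strand). It stood at 33.3 and 127.9 CPM in not extravasated 1 and 2, and at 10.8 and 9.53 CPM in extravasated 1 and 2. The groups did not overlap, but the control libraries lay far apart while the extravasated libraries lay close together. Behind these levels were 384, 2211, 143 and 181 reads in the same order. The second control library was 3.84 times as high as the first (95% interval 3.44 to 4.29 from the read counts, which covers counting error only), whereas the extravasated libraries differed by a factor of 0.88 (0.703 to 1.1). A gap between the controls at least this large in this direction was seen in 17 of the 12320 tested genes (0.138%), Bnip3 included. Set against the mean of the extravasated libraries, Bnip3 was 3.27-fold higher in the first control and 12.6-fold higher in the second, so that the size of the difference, though not its direction, rested on which control was used. With both, the log2 fold change was -3.00 ± 0.69 (SE), and it was -1.72 without not extravasated 2 and -3.66 without not extravasated 1. Of the 8665 tested genes that averaged 10 CPM or more, 2 had a lower log2 fold change. This rank and that of the gap between the controls follow from how Bnip3 was chosen, and they carry no test. An antisense transcript, Gm45507, shares 504 exon bases with Bnip3 and had 0 to 5 reads per library, and the strand setting of the counting was not given in the sources used here.

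**Figure D1:**
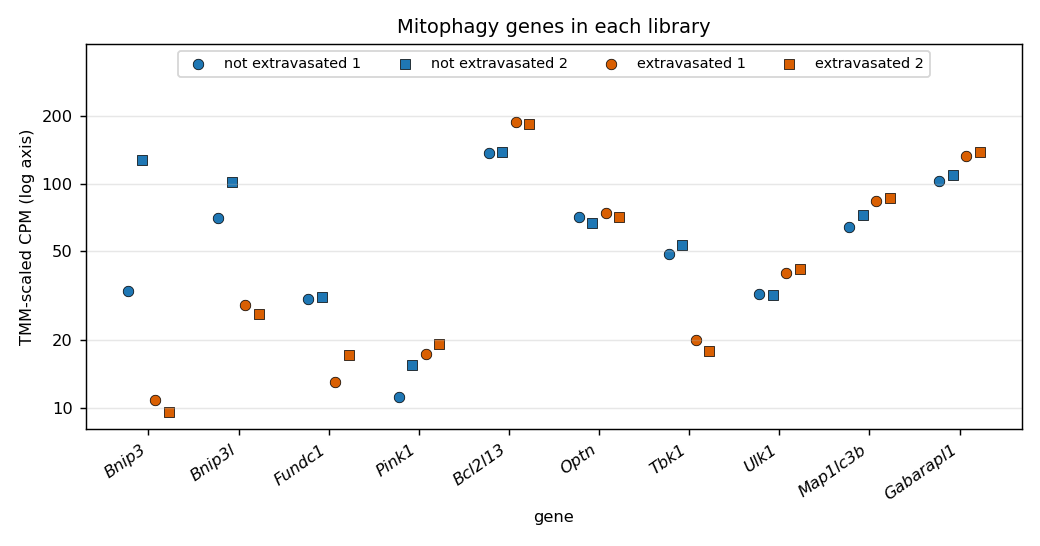
TMM-scaled CPM (log axis) of the 10 mitophagy genes in each library, with controls in blue, extravasated libraries in orange, and circles and squares for libraries 1 and 2. Bnip3 spans 33.3 to 127.9 CPM between the controls, whereas Bcl2l13 lies at 136.6 and 138.5 CPM there, and Optn is the gene whose groups overlap.

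Bnip3l encodes NIX, the closest relative of BNIP3, which is known for clearing mitochondria from maturing red cells (chromosome 14, 66985239 to 67008877, minus strand). It stood at 70.1 and 102.0 CPM in the controls and at 28.8 and 26.2 CPM in the extravasated libraries. Both extravasated libraries were below both controls, and the second control was again the higher one, by a factor of 1.45 (1.34 to 1.58, counting error only). Bnip3l fell 3.14-fold (log2 fold change -1.65 ± 0.20 SE, with an adjusted p of 0.00132 by the quasi-likelihood test of edgeR). The fall was called without each library in turn, with log2 fold changes from -1.89 to -1.35.

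Fundc1, a receptor of hypoxia-induced mitophagy (chromosome X, 17556564 to 17572325, minus strand), stood at 30.6 and 31.1 CPM in the controls and at 13.0 and 17.2 CPM in the extravasated libraries. Here the controls were nearly equal, with a ratio of 1.02 (0.888 to 1.17), so the gap seen in Bnip3 was not shared. Fundc1 fell 2.03-fold (edgeR, adjusted p = 0.00538) and was called without each library in turn, but not with the correction for GC content and length described further on, which brought its log2 fold change to 0.05 (adjusted p = 0.885).

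Bcl2l13, a mitochondrial receptor of the BCL2 family that binds LC3 (chromosome 6, 120836212 to 120892842, plus strand), went the other way. It stood at 136.6 and 138.5 CPM in the controls and at 187.5 and 184.2 CPM in the extravasated libraries, so the libraries of a group differed by far less than the groups. Bcl2l13 rose 1.35-fold (log2 fold change 0.43 ± 0.12 SE, adjusted p of 0.0199 in edgeR). The call ended without extravasated 1 or extravasated 2 (edgeR, adjusted p = 0.0897 and 0.14) while the log2 fold change stayed at 0.45 and 0.41. Its exons overlap those of Bid on the opposite strand by 628 bases, and Bid had 248 to 374 reads per library against 1574 to 3499 for Bcl2l13.

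Among the genes of the PINK1 route, the kinase gene Pink1 (chromosome 4, 138313409 to 138326307, minus strand) had the lowest CPM in 3 of the 4 libraries, at 11.2 and 15.5 in the controls and 17.4 and 19.3 in the extravasated libraries. The groups did not overlap but the controls were spread, and the log2 fold change of 0.45 ± 0.22 (SE) did not pass (edgeR, adjusted p = 0.124). Without not extravasated 2 it was 0.72 and was called (adjusted p = 0.0163).

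Optn, the ubiquitin-binding adaptor (chromosome 2, 5020642 to 5064051, minus strand), stood at 70.8 and 66.7 CPM in the controls and at 74.3 and 70.8 CPM in the extravasated libraries. It was the 1 gene of the 10 whose groups overlapped. Its log2 fold change was 0.08 ± 0.13 (SE, adjusted p of 0.653 in edgeR).

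Tbk1, the kinase that phosphorylates optineurin and also serves innate immune signalling (chromosome 10, 121546455 to 121586787, minus strand), stood at 48.3 and 53.1 CPM in the controls and at 20.1 and 17.9 CPM in the extravasated libraries. The lower control was 2.41 times the higher extravasated library, and the libraries of each group lay close together. Tbk1 fell 2.68-fold (log2 fold change -1.42 ± 0.16 SE, adjusted p of 0.000987 in edgeR), and the fall was called without each library in turn.

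The 3 genes that act on the autophagy membrane had higher levels in both extravasated libraries than in either control, and 1 of them was called. Of all tested genes, 76.3% had groups that did not overlap, in either direction, and 19.1% were called higher. Ulk1, the starting kinase (chromosome 5, 110784488 to 110810097, minus strand), stood at 32.2 and 32.0 CPM in the controls and at 39.7 and 41.6 CPM in extravasated cells, and its log2 difference of 0.34 ± 0.14 (SE) did not pass (edgeR, adjusted p = 0.0852). Map1lc3b, the LC3B gene (chromosome 8, 121590361 to 121598760, plus strand), stood at 64.1 and 72.1 against 83.4 and 86.3 CPM, and did not pass either (log2 fold change 0.32 ± 0.13 SE, adjusted p of 0.0844 in edgeR). Gabarapl1, an ATG8 gene of the GABARAP branch (chromosome 6, 129533160 to 129542346, plus strand), stood at 102.2 and 109.8 CPM in the controls and at 133.2 and 138.9 CPM in the extravasated libraries. Gabarapl1 rose 1.28-fold (log2 fold change 0.36 ± 0.12 SE, adjusted p of 0.0452 in edgeR), and this call was lost without extravasated 1, extravasated 2 or not extravasated 1 (adjusted p = 0.12, 0.276 and 0.1). Map1lc3b was called without not extravasated 2 (adjusted p = 0.0486). Map1lc3b shares 58 exon bases with Zcchc14 on the other strand, and Gabarapl1 shares 570 with 1700101I11Rik, a transcript of 3 to 14 reads per library.

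Leaving Bnip3 aside, 3 of the 9 other genes fell (Bnip3l, Fundc1 and Tbk1), 2 rose (Bcl2l13 and Gabarapl1) and 4 were not called. Of all genes tested, 45.1% were called, 25.9% lower and 19.1% higher, so calls among these 9 were about as frequent as in the table as a whole. Their median log2 fold change was 0.32, against -0.02 for all tested genes. The groups did not overlap in 9 of the 10 genes, Bnip3 included, as in 76.3% of all tested genes. With upper quartile factors 4 of the 9 rose and 3 fell (24.6% and 23.9% of all genes, 48.5% in either direction), and with unscaled library totals 1 rose and 3 fell (15.8% and 27.2%, 42.9% in either direction).

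Transcript composition moved with these directions. The GC content of the annotated principal transcript was 41.6% for Bnip3, 42.0% for Bnip3l, 38.8% for Fundc1 and 45.4% for Tbk1, the lowest 4 of the 10, and these were the genes with negative fold changes. It was 49.3% for Bcl2l13, 50.7% for Optn, 52.6% for Map1lc3b, 52.7% for Gabarapl1, 58.0% for Ulk1 and 59.0% for Pink1. Spearman's rho between GC content and log2 fold change was 0.77 over the 9 genes without Bnip3 and 0.73 over 12295 tested nuclear genes, all read from the same 4 libraries. Transcript length had a rho of -0.10 over the 9 and -0.37 over all.

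**Figure D2:**
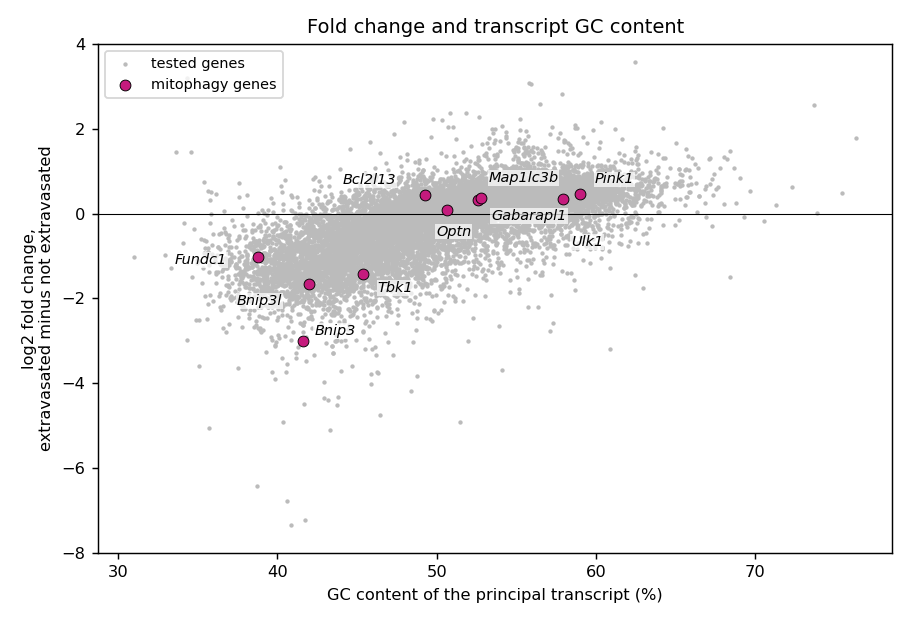
Log2 fold change, extravasated minus not extravasated, against the GC content of the principal transcript for all tested genes (grey) and the 10 mitophagy genes (pink). Fundc1, Bnip3l and Tbk1 lie within the cloud of genes of like GC content, whereas Bnip3 lies at its lower edge with a log2 fold change of -3.00.

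A correction for GC content and length, applied to each library as an offset, left 2 of the 9 genes called, against 14% of all genes (8.24% higher and 5.8% lower). Tbk1 remained lower at -0.75 ± 0.14 on the log2 scale (SE, adjusted p of 0.0179 in edgeR). Bcl2l13 remained higher, and its value grew from 0.43 to 0.87 ± 0.12 (SE; edgeR, adjusted p = 0.00741), on an annotated transcript of 6925 bases of which 1302 are coding. Bnip3l was no longer called, with -0.61 ± 0.26 (SE; edgeR, adjusted p = 0.163). Its corrected value was -0.96 without not extravasated 1 (called, adjusted p = 0.0018) and -0.14 without not extravasated 2 (not called, adjusted p = 0.538). The corrected value of Fundc1 was 0.05 ± 0.21 (SE), and it was not called. Gabarapl1 came to 0.07, Map1lc3b to 0.10, Ulk1 to 0.09, Optn to 0.05 and Pink1 to -0.02, and none of these 5 was called. Bnip3 itself stood at -2.10 ± 0.84 (SE) after correction, at -2.83 without not extravasated 1 and at -0.57 without not extravasated 2. For Tbk1 and Bcl2l13 the corrected calls held without either control library, and ended without either extravasated library, when edgeR called 0 of 12320 genes after correction (2415 and 2065 at an unadjusted p under 0.05 without extravasated 1 and 2).

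**Figure D3:**
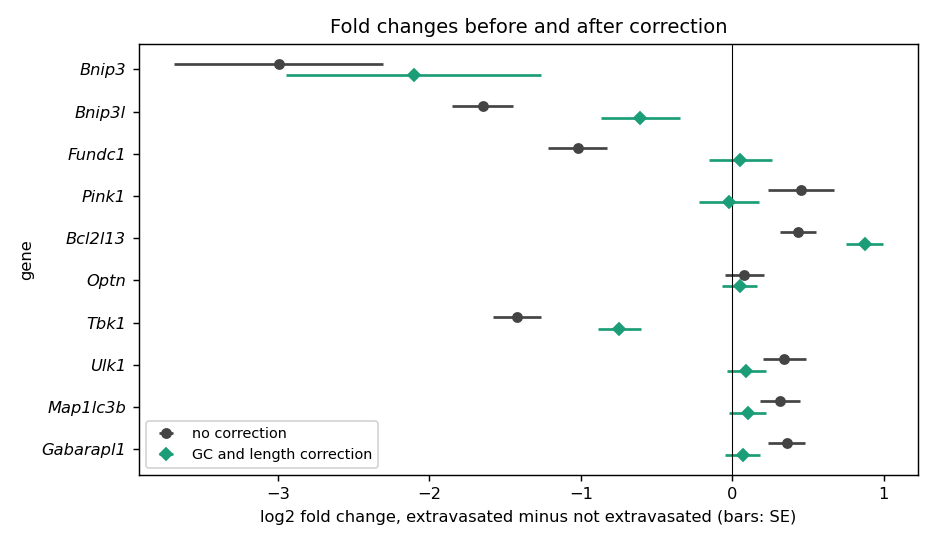
Log2 fold changes (extravasated minus not extravasated, bars are SE) of the 10 genes without correction (circles) and with the GC and length correction (diamonds). Tbk1 at -0.75 and Bcl2l13 at 0.87 stay away from 0 after correction, Fundc1 moves from -1.02 to 0.05, and Bnip3 keeps the widest bar.

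Levels were compared between genes as CPM per kilobase of the principal transcript. In the controls, Gabarapl1 had 56.2 and 60.3 CPM per kilobase, Map1lc3b 25.3 and 28.5, and Optn 27.1 and 25.5. In the extravasated libraries Gabarapl1 was the highest of the 10 with 73.2 and 76.3 CPM per kilobase, followed by Map1lc3b with 32.9 and 34.1. Among the receptors, Bnip3 had the highest level of all 10 genes in not extravasated 2, at 72.9 CPM per kilobase, and the lowest of all 10 in both extravasated libraries, at 6.17 and 5.43. In not extravasated 1, at 19.0 CPM per kilobase, it ranked in the middle, beside Bcl2l13 at 19.7 and Bnip3l at 21.7. Bcl2l13 had 27.1 and 26.6 CPM per kilobase in the extravasated libraries, where it was the highest of the 4 receptor genes, Bnip3l (8.88 and 8.10) and Fundc1 (6.57 and 8.68) being the others beside Bnip3. In the extravasated libraries the levels of Bnip3, Bnip3l, Fundc1, Tbk1, Ulk1 and Pink1 lay between 5.43 and 8.88 CPM per kilobase, and their order changed from one library to the other.

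The remaining genes of the pathway were read from 13 lists with 101 genes, of which 99 were tested. Without correction 28 rose, 26 fell and 45 were not called, a share of 54.5% called against 45.1% of all genes, with a median log2 fold change of 0.14 against -0.02. Of the 26 that fell, 25 had a transcript GC content under the median of all tested genes (50.3%), and of the 28 that rose, 27 had one at or above it. The same split held in the whole table. Among all tested genes, 3010 of the 3196 that fell were under this median, and 2170 of the 2355 that rose were at or above it. After correction 12 rose and 5 fell, 17.2% against 14% of all genes. Of these, 7 had also risen and 3 had also fallen before it. Another 7 were called only after correction; Becn1, the beclin gene, and Tomm7, which holds PINK1 at the outer membrane, were named after their values were seen and went from 0.07 and 0.26 to 0.89 and 0.91 on the log2 scale.

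Among 5 further mitophagy receptors, 3 rose and 0 fell, where 19.1% of all tested genes rose and 25.9% fell. After correction 0 of the 5 were called by edgeR (2 at an unadjusted p under 0.05), against 14% of all genes. Fkbp8, which recruits LC3A to mitochondria, rose from 144.0 and 137.5 to 247.3 and 251.0 CPM, and Phb2, an inner membrane prohibitin, rose 1.72-fold. Neither passed once corrected, at 0.25 and 0.22 on the log2 scale. Of the genes for BNIP3 and NIX protein turnover, Fbxl4, a subunit of the ubiquitin ligase that removes both proteins, had a log2 fold change of -0.52 (edgeR, adjusted p = 0.11), and Pptc7, a phosphatase that works with it, had 0.01; neither was called. In the list around PINK1, 4 of 16 tested genes rose and 5 fell. Huwe1, a ubiquitin ligase, fell 2.83-fold, and its corrected log2 fold change of -0.51 was called as well (edgeR, adjusted p = 0.0368). The deubiquitinase genes Usp15 and Usp8 fell by log2 fold changes of -1.42 and -0.93, and Rhot1, which encodes the transport GTPase Miro1, fell with -0.84. These 3 were not called after correction, with 0.21, -0.27 and 0.07, the sign of Usp15 and Rhot1 having turned.

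Of 8 autophagy adaptor genes, which include partners of TBK1, 2 rose and 4 fell, where 19.1% of all tested genes rose and 25.9% fell. Tax1bp1, a ubiquitin-binding adaptor, fell from 226.8 and 159.2 to 65.6 and 61.2 CPM and was called after correction as well (-1.61 and -0.53 on the log2 scale). Tank, a TBK1-binding scaffold, fell with -1.54, and its corrected value of -0.41 was not called (edgeR, adjusted p = 0.0665). In the ULK complex, 1 of 4 genes rose and 2 fell: Ulk2, the second starting kinase, and Rb1cc1, its scaffold FIP200, had log2 fold changes of -0.73 and -1.45, and of -0.06 and 0.12 after correction, when 0 of the 4 were called by edgeR (0 at an unadjusted p under 0.05). Rb1cc1 stood at 24.9 and 11.7 CPM in the controls, a gap in the direction opposite to that of Bnip3. Upstream of ULK1, 5 of 10 genes of AMPK and mTORC1 rose and 2 fell, with Akt1s1, an mTORC1 inhibitor, at 0.77 and Prkaa1, a catalytic AMPK subunit, at -1.27. After correction 0 of the 10 were called by edgeR (3 at an unadjusted p under 0.05), with 0.18 and 0.03 for these genes.

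In the PI3K complex that follows ULK1, Uvrag rose by 0.42 on the log2 scale, and by 0.61 after correction, and Pik3c3, the lipid kinase, fell with -0.54 and stood at -0.17 after correction, not called; these were the 2 of 7 called without correction. Of the 3 further ATG8 genes, 2 rose and 0 fell, where 19.1% of all tested genes rose and 25.9% fell. Gabarap rose from 145.2 and 152.0 to 219.9 and 248.7 CPM and was called after correction as well (0.66 and 0.48), though not when the longest transcript was used for it (0.44, adjusted p = 0.0555 in edgeR), and Map1lc3a had 1.25 without and 0.56 with correction, the latter not called. Among 17 genes of ATG8 coupling and membrane supply, 3 rose and 4 fell. Atg4d, an ATG8 protease, rose 2.07-fold, and its corrected log2 fold change was 0.96 (edgeR, adjusted p = 0.00851), whereas its relative Atg4c fell 2.83-fold, and its corrected value of -0.65 was not called. Atg2a, a lipid transfer protein, rose with 0.69 and Atg12, a ubiquitin-like protein of the coupling machinery, fell with -0.65, and neither was called after correction (0.48 and 0.29). For fusion with the lysosome 2 of 8 genes rose and 2 fell, with Vamp8, a SNARE, at 0.83 and Plekhm1, a fusion adaptor, at 0.54. Of the genes of mitochondrial division and fusion, 2 of 6 rose and 2 fell: Dnm1l, which encodes the division GTPase DRP1, had a log2 fold change of -1.51 and Fis1, one of its membrane partners, 0.92. After correction Vamp8, Plekhm1, Dnm1l and Fis1 were not called, with 0.24, 0.39, -0.28 and 0.27.

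**Figure D4:**
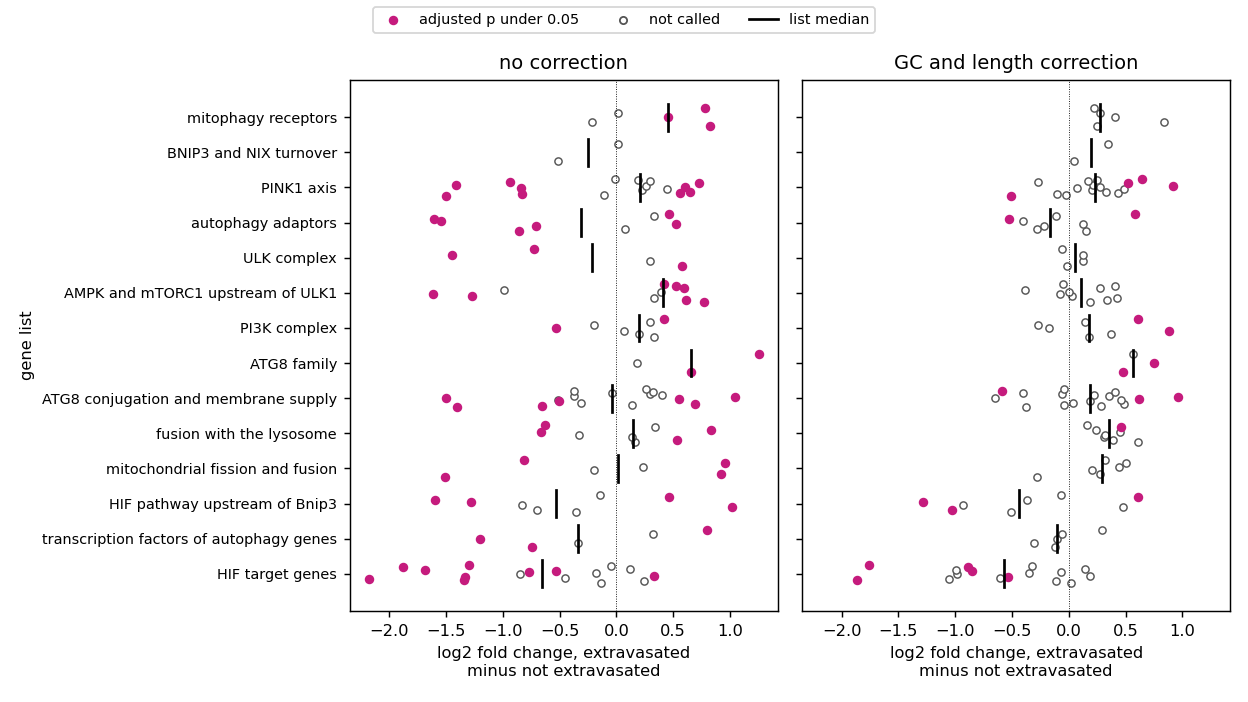
Log2 fold changes (extravasated minus not extravasated) of the tested genes of 14 lists, without correction (left) and with the GC and length correction (right); filled points have an adjusted p under 0.05 and bars are list medians. The HIF target genes have the lowest median in both panels, -0.65 and -0.57.

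Upstream of Bnip3, Hif1a, the oxygen-regulated HIF-1 subunit, fell from 329.0 and 310.6 to 101.5 and 109.7 CPM, a log2 fold change of -1.60, and was not called after correction with -0.37 (edgeR, adjusted p = 0.103). Egln2, a HIF prolyl hydroxylase, rose with 1.02 and stood at 0.48 after correction, not called. Of the 8 genes of this list 2 rose and 2 fell (19.1% and 25.9% of all tested genes). After correction Hif1an rose and Epas1 and Egln1 fell (8.24% and 5.8% of all genes), all 3 named after their values were seen. Epas1, the HIF-2 subunit, stood at 27.9 and 42.4 CPM in the controls and at 16.4 and 12.8 CPM in the extravasated libraries and was called both without and with correction, at -1.28 each (edgeR, adjusted p = 0.00613 and 0.0182). Its uncorrected call was lost without extravasated 2, at -1.14. Its corrected call was lost without extravasated 1 and without extravasated 2, at -1.46 and -1.11. Among transcription factors of autophagy genes, 1 of 5 tested genes rose and 2 fell. Tfeb, the lysosomal master regulator, rose with 0.80 and Mitf, its melanocyte relative, fell with -1.20, and after correction they stood at 0.29 and -0.11, not called.

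Of 18 further HIF target genes 16 were tested, of which 8 fell and 1 rose (25.9% and 19.1% of all tested genes), the latter being Ldha, the lactate dehydrogenase gene, by 0.33 on the log2 scale. The 16 were higher in not extravasated 2 than in not extravasated 1 in 12 of 16, as were 41.2% of all tested genes, with a median difference of 0.44 on the log2 scale, against -0.07 for all tested genes. Pdk1, which restrains pyruvate entry into mitochondria, had 58.5 and 96.7 CPM in the controls, and Plod2, a collagen lysyl hydroxylase, 178.4 and 186.0. The 4 that were lower in the second control were Pgk1, Ldha, P4ha1, a collagen prolyl hydroxylase with 129.8 and 127.1 CPM, and Kdm3a, a histone demethylase with 141.1 and 126.6. The extravasated libraries held 48.9 and 50.2 CPM of Plod2 and 26.5 and 22.0 of Pdk1. After correction 5 of the 16 fell and 0 rose (5.8% and 8.24% of all genes), with Plod2 at -0.89, Kdm3a at -0.54, P4ha1 at -0.07 and Pdk1 at -0.99, of which Plod2 and Kdm3a were called. The other called genes, Vegfa, P4ha2 and Ddit4, were named after their values were seen, with adjusted p of 0.0303, 0.00741 and 0.00902 in edgeR. Without correction, the calls of Vegfa, P4ha2, Ddit4 and Ldha were lost when either extravasated library was left out. That of Pdk1 was lost without extravasated 2. The signs of these log2 fold changes stayed the same.

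The profile most like that of Bnip3 over the 4 libraries, among the 8664 other genes that averaged 10 CPM or more, was that of Ero1l (Ero1a in current naming), an oxidase of the endoplasmic reticulum and itself among the HIF targets listed. Its log2 CPM, centred on the mean of the 4 libraries, differed from that of Bnip3 by a root mean square of 0.41. Ero1l stood at 102.2 and 230.9 CPM in the controls and at 38.2 and 35.5 CPM in the extravasated libraries. It was picked for its likeness to Bnip3, so the shared gap between controls and low level in extravasated cells follow from that choice. Its log2 fold change was -2.18 without correction and -1.06 with it, the latter not called (edgeR, adjusted p = 0.222). Next came Hmgcs1, an enzyme of sterol synthesis, and Acsl3, a fatty acyl-CoA synthetase, at 0.52 and 0.53, 1.76- and 1.72-fold higher in the second control than in the first. Tmem170b, Nsd1, a histone methyltransferase, and Zc3h7a followed at 0.59 to 0.63, with smaller ratios of 1.16 to 1.33 between the controls. Their transcripts had a GC content of 41.0 to 46.5%, also under the median of tested genes. Bnip3l was 24th in this order with 0.72, behind Pdk1, which was 14th with 0.67. These likenesses were read from 4 libraries and carry no test.

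**Figure D5:**
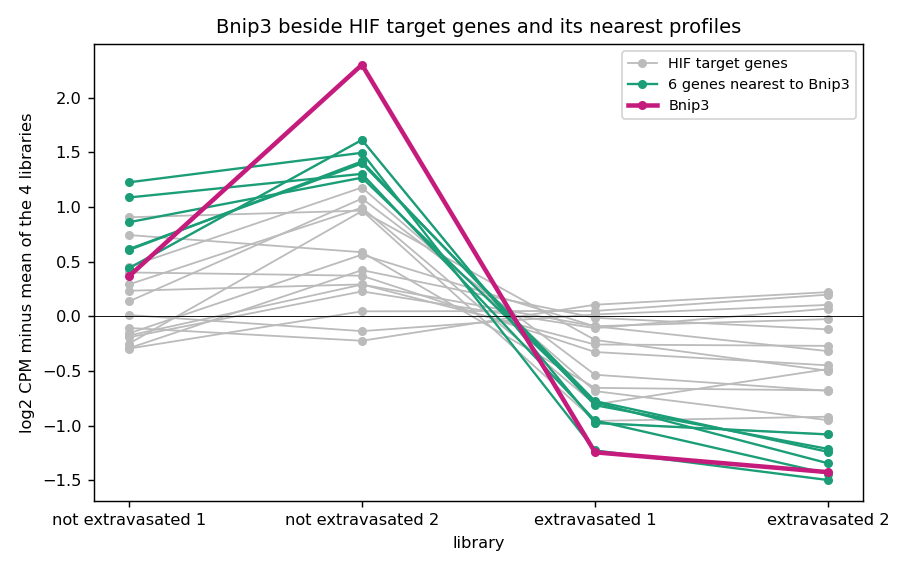
Log2 CPM minus the mean of the 4 libraries for Bnip3 (pink), the 6 genes nearest to it (green) and the 16 tested HIF target genes (grey, with Ero1l drawn in green); lines only join the values of 1 gene. Bnip3 has the highest value of the plotted genes in not extravasated 2, while in not extravasated 1 it lies among the HIF targets.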

How the data were processed

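PolyA RNA of 4 libraries was sequenced from stranded TruSeq mRNA libraries, per the labels' protocols. The deposited values are raw counts of reads per gene, whole numbers with no normalization. Per the submitters' processing notes, bcl2fastq 2.18.0.12, STAR 2.5.3a and GRCm38 were used; the counter, annotation release and strand setting are not given in the sources used here.

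Symbols, positions and transcripts came from GENCODE M21 (GRCm38), promoter windows from RefSeq (GRCm38.p6). Of 53465 identifiers, 53274 matched without their version. Genes were filtered (edgeR 4.0.16 in R 4.3.3, minimum count 10, minimum total 15), scaled with TMM factors and tested with the two-sided quasi-likelihood test, without covariates, Benjamini-Hochberg adjusted over all 12320 genes, threshold 0.05. SEs were derived from the F statistic. Ratios between libraries have exact binomial intervals, which cover counting error only. For the correction, each gene's deviation in log2 CPM (prior count 2) was fitted as a smooth function of the principal transcript's GC content and log2 length (mgcv 1.9.3, basis size 10), leaving out mitochondrially encoded genes, and entered as an offset. The code was tested on simulated counts. Alternatives were RLE and upper quartile factors, unscaled totals, DESeq2 1.42.0, limma-voom (limma 3.58.1), no filter, the longest transcript, a title suffix term, and leaving out each library.

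Members, lists and the correction were chosen with earlier results of these data known. Of each list the 2 called genes with the smallest adjusted p (4 for lists of over 10) are named, and the 6 genes nearest to Bnip3; Fbxl4, Pptc7, Epas1, Egln1, Hif1an, Becn1, Tomm7, Ldha, Vegfa, P4ha2, Ddit4 and Pgk1 fall outside this rule and were chosen after their values were seen, and 1 listed gene is not reported here.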

Additional observations from a re-analysis of the deposited data

How the results depend on the processing

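The count of genes called, 5551, moved to 1729 with the GC and length correction and to 1669 when the longest transcript stood for the gene. Without each library in turn it ran from 1677 to 6185, with 3241 without extravasated 1 and 1677 without extravasated 2. With the correction and 1 library left out it was 2993 and 2131 without not extravasated 1 and 2, and 0 without either extravasated library (edgeR; 2415 and 2065 at an unadjusted p under 0.05). Of the 9 mitophagy genes other than Bnip3, 5 were called, 2 with the correction on either transcript, 3 to 7 without 1 library (3 without either extravasated one), and 0 to 3 with the correction and without 1 library, 0 being the count without either extravasated one (2 at an unadjusted p under 0.05 in each case). Of the 99 pathway genes, 54 were called, 17 with the correction and 14 with the longest transcript, 16 to 59 without 1 library (30 and 16 without extravasated 1 and 2), and 0 to 29 with the correction and without 1 library, with 21 without not extravasated 2 (23 and 21 at an unadjusted p under 0.05 in the cases of 0). Under RLE, upper quartile or unscaled library sizes, DESeq2, limma-voom, no filter and the title suffix term these 3 counts stayed within 1.5 times. Calls were lost for Gabarapl1 with unscaled totals and DESeq2, Rb1cc1 with limma-voom, Pik3c3 with upper quartile factors and DESeq2, Uvrag with unscaled totals and Ldha with unscaled totals, and gained for Ulk1 with upper quartile factors, Map1lc3b with upper quartile factors and Egln1 with DESeq2, no filter and title suffix term. With the correction, the longest transcript in place of the principal one ended the call of Gabarap and gave calls for Pdk1 and Vamp8. Among the 54 genes run under these settings, the log2 fold change changed sign without the correction only for Pptc7, near 0 at 0.01, to -0.036 with unscaled totals, -0.15 without not extravasated 2 and -0.14 without extravasated 1. The following changed sign with it. Fundc1 had 0.053 with the principal transcript, 0.028 with the longest and 0.14 or 0.35 without 1 library. Pink1 had -0.020 with the principal transcript, -0.046 with the longest and -0.22, -0.028 or -0.0098 without 1 library. Optn had -0.00068 with the longest. Map1lc3b had -0.077 with the longest. Usp15 had 0.21 with the principal transcript, 0.20 with the longest and 0.077, 0.16, 0.26 or 0.33 without 1 library. Rhot1 had 0.069 with the principal transcript, 0.086 with the longest and 0.025, 0.11 or 0.22 without 1 library. Ulk2 had 0.075 or 0.097 without 1 library. Rb1cc1 had 0.12 with the principal transcript, 0.12 with the longest and 0.28 or 0.38 without 1 library. Prkaa1 had 0.032 with the principal transcript, 0.022 with the longest and 0.012, 0.048 or 0.089 without 1 library. Atg12 had 0.29 with the principal transcript, 0.25 with the longest and 0.19, 0.26, 0.31 or 0.39 without 1 library. Mitf had 0.080 or 0.18 without 1 library. Fbxl4 had 0.044 with the principal transcript and 0.088 or 0.20 without 1 library. Where 1 library was left out, the lone library of its group was assumed to vary like the other group. The cause of these shifts was not tested. The titles carry no replicate numbers, and whether their suffix marks pairs is not known. Not extravasated 1 and extravasated 2 share the title suffix C, so the gap of Bnip3 between the controls coincides with this suffix. A term for it, which blocks the libraries as pairs would, gave 6165 genes called, 5 of the 9 mitophagy genes and 57 of the 99 pathway genes. Depth was lowest for Pink1, with 129 to 367 reads and an SE of 0.22 for its log2 fold change of 0.45.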
